A study of Homo sapiens with 18 samples.

Results

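CD10+ cells of the M1B26 line were set against CD10+ cells of the MC26 line, both derived from the human mammary epithelial line MCF10A. Each had 2 arrays, so the comparison rests on 4 of the 18 arrays of the series, chosen by their labels for line and sort and not by any measured value. MCF10A is an immortalised, non-malignant line whose cells lack CDKN2A and carry extra copies of MYC, and every array here shares that background. To obtain M1B26, MCF10A cells were sorted for the BMP receptor BMPR1B and exposed to BMP2, a growth factor, and IL6, a cytokine. Per the study's methods these cells were transformed within weeks, and colonies picked from soft agar were grown on with both factors to give M1B26. MC26 came from unsorted MCF10A cells under longer exposure to the same factors, with no such selection stated. IL6 was given at 10 ng/ml, while BMP2 is stated both as 5 and as 10 ng/ml. MCF10A-CT, the untreated control line, was kept in the same basal medium, which contained serum, insulin, hydrocortisone, cholera toxin and EGF. Each line was also measured as CD10- and as unsorted cells, and the unsorted cells were frozen rather than stained and sorted. Since each condition is represented by 1 line, the effects of the BMPR1B sort, of the soft-agar selection and of the length of exposure, and differences between separately derived lines, cannot be told apart.

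CD10, encoded by MME, is a membrane endopeptidase that trims small peptides outside the cell. In the breast it marks basal and myoepithelial cells and cells with progenitor properties. Epithelial cells hold together through the cadherin CDH1, tight junctions and desmosomes. In an epithelial-mesenchymal transition the zinc finger repressors ZEB1 and ZEB2 silence these genes, the splicing factor ESRP1 and the transcription factor OVOL2 work to keep the epithelial state, and the microRNA miR-205 acts against ZEB1 and ZEB2. The genes below are ordered by those roles, followed by the matrix, secreted signals and their receptors, metabolism and the cell cycle.

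The values are array intensities, and a difference is M1B26 minus MC26 on the log2(intensity + 1) scale with its SE. From here on, M1B26 and MC26 mean the CD10+ arrays unless CD10- or unsorted cells are named, and values are given for replicate 1 and replicate 2. MME, the gene of the sorted protein, had intensities of 1269 and 1021 in M1B26, 69.8 and 90.7 in MC26 and 48.3 and 65.0 in MCF10A-CT CD10+ cells. The M1B26 arrays thus stood far above both other lines although all had passed a CD10+ sort. MME was higher by 3.82 ± 0.64 (adjusted p = 0.00129, limma), and its second probe set, with 1208 and 986 against 70.9 and 66.2, ran the same way. In CD10- cells MME differed by 1.09 and in unsorted cells by 1.39, and the excess in CD10+ cells was 2.73 ± 0.90 (adjusted p = 0.207).

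Basal keratins were present in both lines. KRT5, a basal cell keratin, had 5079 and 4386 in M1B26 and 3776 and 5282 in MC26, groups that overlapped (0.08 ± 0.20, adjusted p = 0.862). KRT14, its partner, had 1680.2 and 1015 against 2562 and 4026 (-1.30 ± 0.56, adjusted p = 0.151). None of the 4 basal keratins tested passed. Of the simple keratins KRT8 was higher, with 1635 and 1944 against 714 and 601 (1.44 ± 0.24), whereas KRT18 had 2992 and 2857 against 3643 and 4188 and KRT7 6802 and 8053 against 5384 and 6285, and neither passed. KRT8 and KRT18 were read by probe sets that can bind related transcripts. Leukocyte markers summed to 689 and 653 in M1B26 and to 661 and 684 in MC26 over 14 genes. Endothelial markers summed to 170 and 169 against 189 and 161 over 10 genes. In each line 9 of these leukocyte and 3 of these endothelial markers lay above the detection level used here (intensity 14.3). PTPRC and CDH5 lay under it. Within these leukocyte sums LAPTM5, a lysosomal protein of blood cells, had 297 and 263 against 46.2 and 54.0 (2.46, adjusted p = 0.0714) and the lipopolysaccharide co-receptor CD14 133.2 and 156 against 347 and 340.4 (-1.25, adjusted p = 0.0948). The 18 fibroblast markers summed to 29480 and 29870 against 9232 and 12660. Most of that sum came from VIM, NNMT, DCN and S100A4, and 6 of the 10 members tested were called higher (S100A4, DCN, CDH2, VIM, CDH11 and NNMT), 4 of them under all 3 scalings (CDH11 with adjusted p up to 0.126 without 1 array, and near background in MC26). The collagen-binding proteoglycan lumican (LUM) had 517 and 593 against 0.513 and 8.80, but its mean over all arrays missed the filter and it was not tested. COL1A1 had 119.5 and 182 against 74.8 and 97.0 and FAP 386 and 255 against 258 and 364, and neither passed, while PDGFRA, COL3A1 and TCF21 lay under the detection level on all 4 arrays. The part of other cell types in the differences was not tested. In bulk samples fewer cells of a type and less RNA per cell cannot be told apart.

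Of 12166 genes tested, 1421 differed between M1B26 and MC26 CD10+ cells at an adjusted p under 0.05 (11.7%). They comprised 1110 genes higher in M1B26 (9.12%) and 311 lower (2.56%), of which 721 and 257 changed at least 2-fold. The arrays of the lines did not overlap at any of the 1421 genes, nor at 7357 genes in all. Replicates correlated at 0.979 in M1B26 and 0.9745 in MC26, against 0.929 to 0.935 between the lines. The excess of higher genes depended on the scaling. All genes together lay 0.20 above 0 at the median on the authors' scale, which gives every array the same median over all probe sets, and 78.1% of the calls were higher. With quantile normalization the median was -0.03 and 50.5% of 1104 calls were higher, and with each array centred on the tested genes it was -0.08 and 45.3% of 1114 calls. The genes called the same way under all 3 scalings numbered 492 higher and 304 lower, and no gene was called in opposite directions. Gene groups are therefore described by their calls on the deposited scale, followed by those that held under all 3 scalings. Their counts are over the members that passed the filter on low values, such as 16 of 20 epithelial surface genes and 24 of 32 matrix genes.

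Precision was limited by the number of arrays. Differences had an SE of 0.30 at the median, and p-values measure only the spread between these samples, which the labels call biological replicates without saying how they were grown. With 1 array left out, the count was 562 without M1B26 replicate 1, 499 without M1B26 replicate 2, 503 without MC26 replicate 1 and 1008 without MC26 replicate 2. Of the 1421 genes, 231 of those higher and 118 of those lower passed in each of these 4 fits. Of the 140 genes chosen by rule for the text that passed, 75 did so in each of the 4 fits, and these 75 also held under all 3 scalings. Every gene named in the text as called on the deposited scale but not under all 3 scalings also lost its call in 1 or more of these fits. For genes that held under all 3 scalings and lost their call without an array, the arrays concerned or the largest adjusted p is given.

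**Figure D1:**
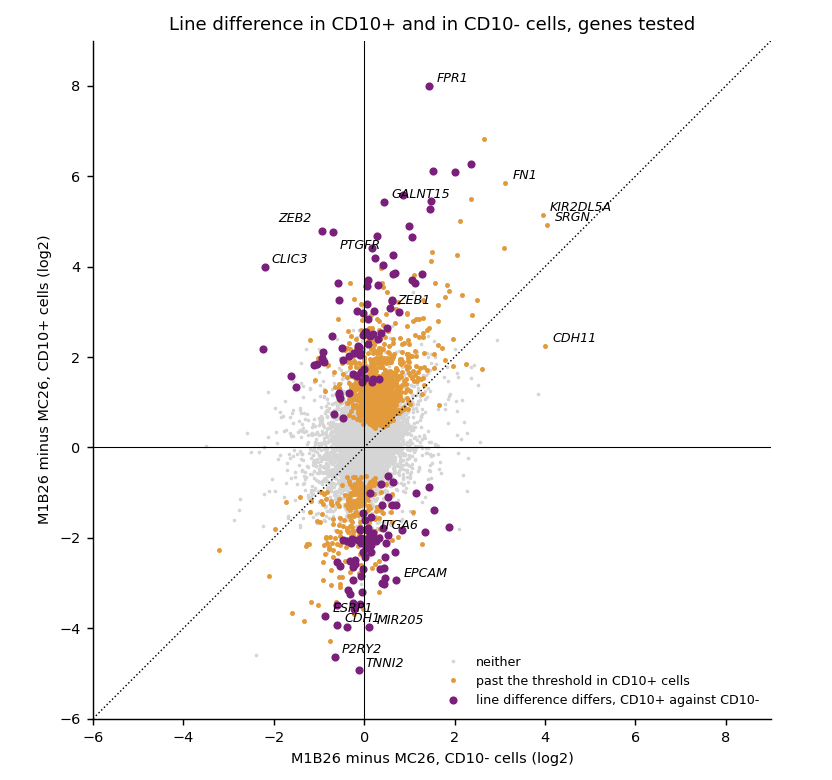
Each point is a gene tested, with the log2(intensity + 1) difference between M1B26 and MC26 in CD10+ cells on the vertical axis and the same difference in CD10- cells on the horizontal axis. Orange marks genes called in CD10+ cells, 1421 with those under purple. Purple marks the 154 genes whose line difference differed between CD10+ and CD10- cells, and the dotted diagonal marks equal differences. The called genes had medians of 1.18 (higher) and -1.61 (lower) on the vertical axis and 0.29 and -0.13 on the horizontal axis. They were chosen by the vertical difference, so part of this contrast follows from that choice.

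The largest increase was that of FPR1, a receptor for bacterial and mitochondrial formyl peptides, with 4275 and 3788 in M1B26 against 6.20 and 33.2 in MC26 and 221 and 147 in MCF10A-CT. It was higher by 8.0 ± 0.79 (adjusted p = 1.95e-05), a size that is uncertain because MC26 replicate 1 lay under the detection level. Next came the adhesion molecule CADM3 (6.83 ± 0.73), the interleukin-1 decoy receptor IL1R2 (6.26 ± 0.63), the IGF-binding protein protease PAPPA (6.13 ± 0.64), the interleukin-33 receptor IL1RL1 (6.10 ± 0.56) and fibronectin, FN1 (5.85 ± 0.77). The 15 largest increases also held PRR16, the proteoglycan decorin DCN, the collagen VI chain COL6A3, the glycosyltransferase GALNT15, the ligand WNT5A, KIR2DL5A, the hyaluronan-binding protein TNFAIP6, the proteoglycan serglycin (SRGN) and the protease inhibitor SERPINA3, with differences of 4.90 to 5.59. CADM3, PAPPA, FN1, DCN and KIR2DL5A were read by probe sets that can bind related transcripts, and KIR2DL5A belongs to a family of near-identical genes, so its identity is uncertain. PRR16 and TNFAIP6 were near background in MC26, which makes the size of their differences uncertain.

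Among the 15 largest decreases, TNNI2, a troponin subunit of fast muscle, had 1.82 and 1.55 in M1B26 against 53.1 and 124 in MC26 (-4.94 ± 0.49), and P2RY2, a receptor for extracellular ATP and UTP, had 4.95 and 1.16 against 80.7 and 96.2 (-4.64 ± 0.50). Both were near background in M1B26, as were the ubiquitin ligase CBLC, the kinase SYK and the transcription cofactor EYA2, so that these sizes are uncertain. LINC01503, a long non-coding RNA, had 11.4 and 36.6 against 340.5 and 332 (-3.97 ± 0.44). The other decreases were MIR205 and its host MIR205HG, the epithelial genes CDH1, ESRP1, MAL2, FAM83B and S100A14, the lipase-related PNLIPRP3 and the motor adaptor BICDL1, with differences between -3.98 and -3.42. At each of these 30 genes, chosen among genes whose line arrays did not overlap, the call held under all 3 scalings. MIR205HG lost it without M1B26 replicate 2 or MC26 replicate 1 (adjusted p up to 0.0873).

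**Figure D2:**
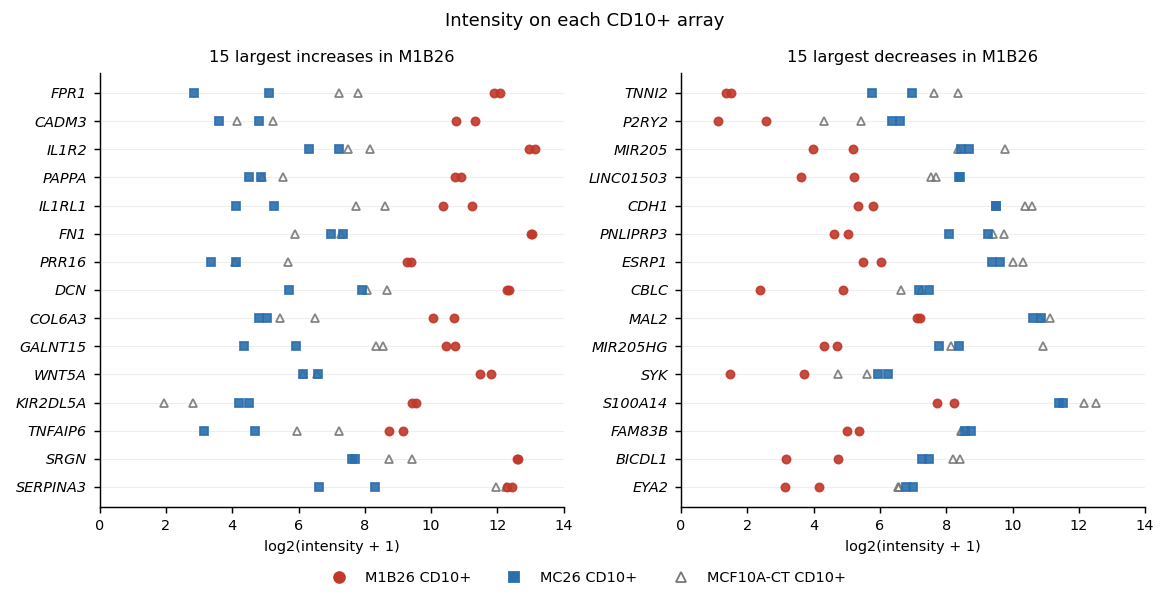
The 15 largest increases and the 15 largest decreases, with the log2(intensity + 1) of each CD10+ array of M1B26, MC26 and MCF10A-CT on the x axis. Genes were chosen with M1B26 and MC26 points apart and run from FPR1 (difference 8.0) to TNNI2 (difference -4.94), and for SERPINA3 the MCF10A-CT points lie with M1B26.

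Epithelial adhesion and surface genes were lower in M1B26. CDH1, the adherens junction cadherin, had 39.6 and 54.2 in M1B26, 721 and 722 in MC26 and 1538 and 1329.7 in MCF10A-CT. Both M1B26 arrays lay far under all arrays of the other lines, and CDH1 fell by 3.93 ± 0.24 (adjusted p = 3.34e-07, 15.3-fold). EPCAM, an epithelial surface glycoprotein, had 111 and 190.5 against 1402 and 893 (-2.94 ± 0.46, adjusted p = 0.000851), with 2537 and 2024 in MCF10A-CT. Of 16 genes for epithelial surface proteins and membrane traffic, 13 fell and none rose, with a median difference of -1.93 against 0.20 over all genes, and all 13 held under the 3 scalings. They included FAM83B (30.9 and 40.1 against 428 and 376, -3.47 ± 0.22), the raft protein MAL2 (139 and 146 against 1571 and 1859.5, -3.57 ± 0.23), the lipid enzyme CDS1 (-2.48), the microtubule-binding MAP7 (-2.32), the protease matriptase ST14 (-2.90) and its inhibitor SPINT2 (-1.79). PRSS8 lost its call without any 1 of the 4 arrays (adjusted p up to 0.221) and AP1M2 without M1B26 replicate 1 (adjusted p = 0.0880). SPINT1, CD24 and MUC1 did not pass (0.63, -1.68 and 0.63).

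Of 21 genes of adherens junctions, tight junctions and polarity, 6 fell and 2 rose, with a median of -0.34. Beside CDH1 the tight junction proteins MARVELD3 (10.1 and 7.72 against 97.1 and 62.9, -3.01 ± 0.34, of uncertain size because M1B26 lay near background) and MARVELD2 (-1.95 ± 0.29), the polarity proteins CRB3 (23.4 and 14.1 against 63.7 and 70.3, -1.82 ± 0.28) and LLGL2 (-1.14 ± 0.34) and the adhesion receptor NECTIN1 (-1.41 ± 0.30) fell, and all 6 held under the 3 scalings. The 2 higher genes, NECTIN2 (1.12 ± 0.26) and the beta-catenin gene CTNNB1 (0.61 ± 0.16), were not called with quantile normalization or centring. The calls of LLGL2, NECTIN1, NECTIN2 and CTNNB1 were also lost without 1 or more arrays (adjusted p up to 0.213, 0.123, 0.160 and 0.161). Claudin CLDN1, with 45.9 and 62.4 against 59.7 and 70.1, did not pass, and in MCF10A-CT it had 403 and 409.7.

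Of 9 desmosome genes 5 were lower. The desmosomal cadherin DSG3 had 142 and 103 in M1B26 against 508 and 499 in MC26 (-2.05 ± 0.21) and the plaque protein PKP2 93.1 and 93.8 against 372 and 438 (-2.10 ± 0.24). DSC3, PKP3 and DSP also fell (-1.75, -1.30 and -0.77), all 5 under the 3 scalings and none higher, while DSG2, JUP, DSC2 and PERP did not pass on the deposited scale. DSP was not called without M1B26 replicate 1 or MC26 replicate 2 (adjusted p up to 0.104). Hemidesmosomes, which anchor basal cells to the basement membrane, had 2 genes lower and 2 higher of 6. The integrin ITGA6, a basal and progenitor surface marker, had 1019 and 1069.6 against 4018 and 3709 (-1.89 ± 0.21), and both its probe sets fell. DST, an anchoring plakin, had 129 and 149.9 against 955 and 829 (-2.67 ± 0.39) with the probe set used, but other DST probe sets well above background ran the other way, so its direction depends on the probe set. PLEC (1.21 ± 0.37) and CD151 (1.03 ± 0.31) were called higher on the deposited scale alone and were lost without any 1 array (adjusted p up to 0.225 and 0.284). Of the genes for cornified envelope proteins and clade B serpins 3 of 12 fell (CSTA -1.0, TGM1 -2.75 with M1B26 near background, SERPINB5 -0.68), the last 2 not in every fit (adjusted p up to 0.192 and 0.250), and the S100 protein S100A14 had 212 and 303 against 2968 and 2703 (-3.48 ± 0.25).

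Of 14 regulators of the epithelial state 6 were lower in M1B26, 2 higher and 6 not called on the deposited scale. ESRP1 had 44.3 and 64.5 in M1B26, 789 and 662 in MC26 and 1036 and 1275 in MCF10A-CT (-3.73 ± 0.27, adjusted p = 8.11e-07), and OVOL2 15.5 and 20.8 against 117 and 116 (-2.63 ± 0.29). GRHL1, TFAP2A and FOXA1, transcription factors of epithelia, fell by less (-1.31, -0.63 and -1.49), each losing its call without 1 or more arrays (adjusted p up to 0.142, 0.179 and 0.355), with FOXA1 near background in M1B26. The epithelial ETS factor EHF went the other way, with 649 and 258 against 77.0 and 103 (2.19 ± 0.50), and it lost its call without M1B26 replicate 1 or MC26 replicate 1 (adjusted p up to 0.144). The other higher regulator, TFAP2C (0.81 ± 0.24), was not called higher under the other scalings. MIR205HG, the host transcript of miR-205, had 24.9 and 19.0 against 333 and 218 (-3.57 ± 0.78), and a probe set annotated to MIR205 itself had 35.3 and 14.9 against 415 and 346 (-3.98 ± 0.47, adjusted p = 6.61e-05), with 327 and 883 in MCF10A-CT. The array reads the longer transcripts and not the mature microRNA, whose sequence is printed because it is the product of this locus. It lies at chr1:209432166-209432187 on the plus strand (GRCh38.p14, RefSeq), and the capitals mark the seed, bases 2 to 8, with which a microRNA pairs to its targets.
hsa-miR-205-5p: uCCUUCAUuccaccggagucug

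ZEB proteins bind the E-box letters CACCTG, which read CAGGTG on the other strand. In the RefSeq promoters of the genes tested (250 bases before to 50 after the start, GRCh38.p14), 18.5% of 14461 windows held these letters on either strand and 0.436% held 3 or more. Only 71.7% of the genes called lower had a promoter in this table, fewer than the 80% taken as the minimum, so a comparison of motif shares between called and other genes was void and none is given. Of 15 epithelial genes called lower that had a promoter in the table, 7 held a match and 8 none (DSC3, DSG3, FAM83B, GRHL1, LSR, MARVELD2, MIR205HG and TFAP2A). CDH1, EPCAM, ESRP1 and OVOL2, also called lower, had no promoter there. The 7 of 15 thus covers only part of the epithelial genes called lower, and it cannot be set against the share over all windows. CRB3, with 5 matches, and AP1M2 and MYO5B, with 3 each, had the most, and the promoters of CRB3 and AP1M2, chosen after their letters were read, are printed as the dense cases and not as typical ones. CRB3 lies at chr19:6464021-6464320 on the plus strand and AP1M2 at chr19:10587263-10587562 on the minus strand, and capitals mark each match. A match is a description of the letters, not a sign that a protein was bound.
CRB3 promoter: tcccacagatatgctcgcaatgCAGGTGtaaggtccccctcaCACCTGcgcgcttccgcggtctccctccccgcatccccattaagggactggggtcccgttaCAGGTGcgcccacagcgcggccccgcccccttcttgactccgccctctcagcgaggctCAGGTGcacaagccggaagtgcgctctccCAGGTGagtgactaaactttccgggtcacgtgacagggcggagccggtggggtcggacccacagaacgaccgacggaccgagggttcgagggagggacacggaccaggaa
AP1M2 promoter: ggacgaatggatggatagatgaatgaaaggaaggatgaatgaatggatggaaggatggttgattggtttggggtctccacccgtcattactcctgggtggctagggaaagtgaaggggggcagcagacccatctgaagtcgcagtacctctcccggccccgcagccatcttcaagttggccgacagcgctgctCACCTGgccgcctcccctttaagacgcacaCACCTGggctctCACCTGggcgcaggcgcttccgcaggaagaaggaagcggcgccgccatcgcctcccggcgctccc

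Of 9 transcription factors of the mesenchymal programme 4 were higher in M1B26 and none lower, 3 of them under all 3 scalings. ZEB1 had 603 and 587 in M1B26, 65.1 and 73.6 in MC26 and 33.4 and 48.2 in MCF10A-CT, and rose by 3.09 ± 0.38 (adjusted p = 0.000100, 8.49-fold). Another ZEB1 probe set above background had 165.4 and 132.3 against 68.0 and 48.4, a smaller rise of 1.35, so the size depends on the probe set. ZEB2 had 232 and 313 against 10.9 and 6.95 and 16.8 and 24.9. Since MC26 lay near background, the difference of 4.79 ± 0.84 (adjusted p = 0.00187) has an uncertain size. GLIS1 rose too, with 198 and 258 against 14 and 21.1 (3.64 ± 0.77), though it was lost without M1B26 replicate 2 or MC26 replicate 1 (adjusted p up to 0.0709), and its probe set can bind related transcripts. TWIST1 had 921 and 907 against 269 and 309.5 (1.66 ± 0.44), but MCF10A-CT had 528 and 1170.5, and the call was lost under both other scalings and without 1 array (adjusted p up to 0.154). SNAI2, a repressor that basal breast cells use, had 2438 and 2877 against 2147 and 1869 and did not pass (0.40 ± 0.25, adjusted p = 0.332). Vimentin, VIM, had 8382 and 9457 against 4700.2 and 5192 (0.85 ± 0.17, adjusted p = 0.00455), while MCF10A-CT, with 6000 and 6540, lay between the lines. The VIM call was lost with centring and without M1B26 replicate 2 or MC26 replicate 1. Its dim second probe set ran the other way, so that the mean of both was -0.25. N-cadherin, CDH2, had 817 and 680.2 against 104 and 146 and rose by 2.59 ± 0.45 under all 3 scalings.

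**Figure D3:**
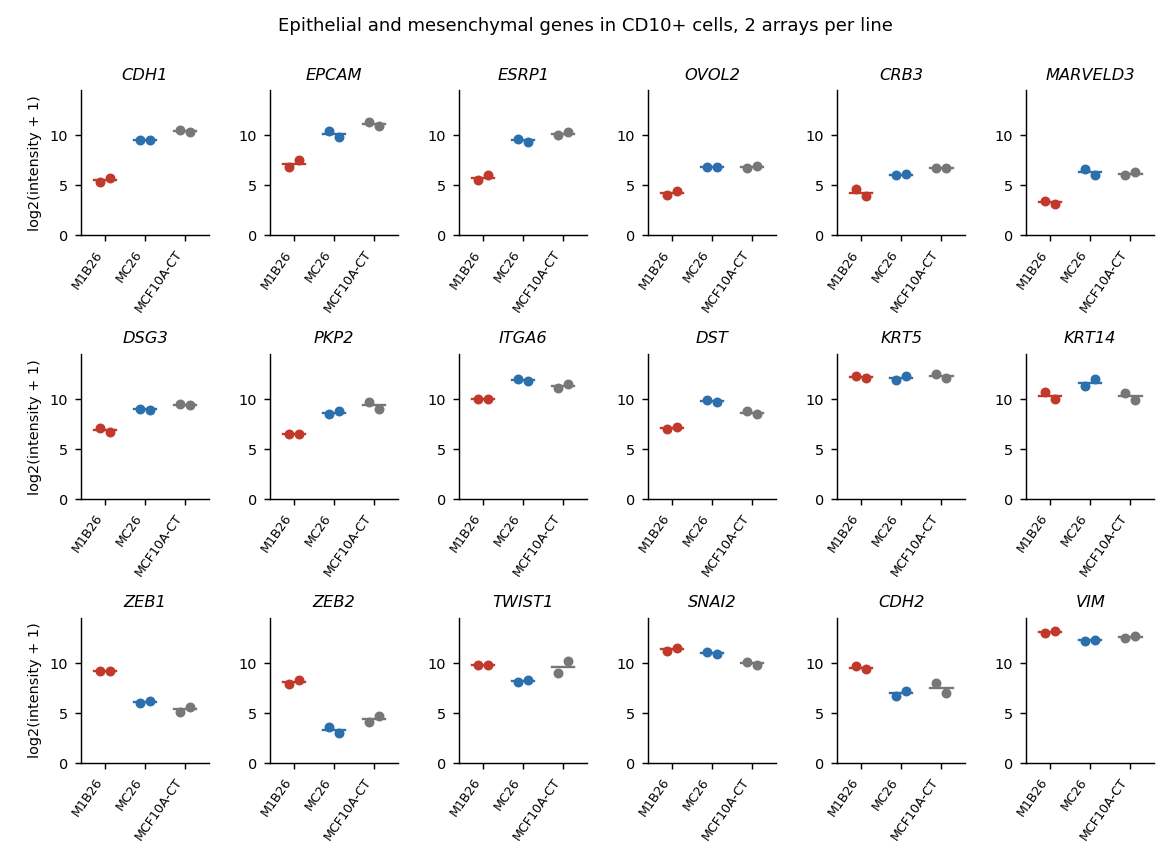
Log2(intensity + 1) of each CD10+ array of M1B26, MC26 and MCF10A-CT on the vertical axis for epithelial and mesenchymal genes, with a dash at each group mean. CDH1 lies at 39.6 and 54.2 in M1B26 against 721 and 722 in MC26, and ZEB1 at 603 and 587 against 65.1 and 73.6.

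Of 24 genes for the interstitial matrix, collagens, glycoproteins and cross-linking enzymes, 14 were higher and none lower, with a median of 1.68 against 0.20 over all genes, and 12 held under all 3 scalings. Fibronectin (FN1) had 8258 and 8402 in M1B26, 126 and 162 in MC26 and 58.6 and 155 in MCF10A-CT, and 4 further FN1 probe sets above background gave differences of 4.29 to 6.54. Decorin (DCN), which binds collagen fibrils, had 5162 and 5034 against 51.9 and 242, with the MC26 arrays differing from each other more than those of M1B26. COL6A3, a chain of the microfibril-forming collagen VI, had 1057 and 1664 against 31.8 and 27.2 (5.45 ± 0.47, adjusted p = 4.63e-06), and COL6A1 rose by 4.26 ± 0.39. COL12A1 had 768 and 939.9 against 75.1 and 115 (3.18 ± 0.28), and the basement membrane collagens COL4A1 and COL4A2 rose by 1.27 ± 0.20 and 1.19 ± 0.22. The fibrillin FBN1, the fibulin FBLN1, versican VCAN and SPARC were also higher (2.83, 1.91, 1.77 and 1.67), of which FBLN1 and SPARC were not called in every fit (adjusted p up to 0.0760 and 0.0661). COL16A1 and LOXL2 were lost under another scaling (1.22 and 1.68). Lysyl oxidase LOX, which cross-links collagen, had 738 and 709 against 113 and 164 (2.40 ± 0.34), with 648 and 849 in MCF10A-CT. Periostin (POSTN), with 1206 and 927 against 40.9 and 228, did not pass (3.43 ± 1.5, adjusted p = 0.158).

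Of 13 matrix proteases and inhibitors, the inhibitors TIMP2 (2939 and 2808 against 922 and 679, 1.86 ± 0.29) and TIMP1 (1.20 ± 0.21) rose, and TIMP3, with 57.3 and 31.1 against 271 and 349, fell by 2.83 ± 0.58. The fall of TIMP3 was not called without M1B26 replicate 2 (adjusted p = 0.0768). MMP2 was called on the deposited scale alone (2.17 ± 0.61, adjusted p up to 0.255 without 1 array). MMP9 and MMP14, the gelatinase and the membrane collagenase, differed by -0.14 and -0.15 and did not pass. Among integrins, the fibronectin receptor chains ITGAV (2873 and 2942 against 1555 and 1404, 0.98 ± 0.19) and ITGA5 (660.5 and 1318 against 173 and 121, 2.68 ± 0.61, adjusted p up to 0.128 without 1 array) rose under all 3 scalings, whereas ITGB1 did so on the deposited scale alone (0.59 ± 0.15). Contractile genes of myoepithelial cells rose in 4 of 8 cases, of which tropomyosin TPM2 (4544 and 5412 against 1447 and 2057, 1.52 ± 0.19) and smooth muscle actin ACTA2 (611 and 461 against 153 and 145, 1.82 ± 0.41) held under all 3 scalings. ACTA2 lost its call without M1B26 replicate 1, MC26 replicate 1 or MC26 replicate 2 (adjusted p up to 0.0917). S100A4, a mesenchymal S100 protein, had 4088 and 3763 against 493 and 474 and rose by 3.02 ± 0.38, but MCF10A-CT had 4437 and 2656, so that MC26 was the line that stood apart.

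TGF-beta signals drive mesenchymal programmes in many epithelia, and 7 of 13 genes of this pathway were higher in M1B26. The ligand TGFB2 had 819 and 682 in M1B26, 29.8 and 52.9 in MC26 and 52.1 and 63.1 in MCF10A-CT (4.20 ± 0.44, adjusted p = 2.83e-05). Both M1B26 arrays lay far above all others. TGFB1 (297 and 385 against 86.7 and 94.3, 1.89 ± 0.39) and the receptor TGFBR2 (4469 and 4151 against 2066 and 1988, 1.09 ± 0.20) rose as well, as did the latency protein LTBP2 (1.16 ± 0.29). LTBP1, LTBP3 and SKIL were called on the deposited scale alone, so 4 genes were higher under all 3 scalings. The median over the 13 genes was 1.09 on the deposited scale, 0.77 with quantile normalization and 0.81 with centring. TGFB1 lost its call without M1B26 replicate 2 or MC26 replicate 1 (adjusted p up to 0.0689) and LTBP2 without M1B26 replicate 1 or MC26 replicate 1 (adjusted p up to 0.220). TGFBR1, TGFBR3 and TGFB3 did not pass (0.15, 0.10 and 0.09).

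WNT5A, a ligand of non-canonical Wnt signalling, had 2836 and 3610 in M1B26 against 69.2 and 95.8 in MC26 (5.28 ± 0.42, adjusted p = 3.24e-06). The secreted Wnt inhibitor SFRP1 had 473 and 281 against 1839.6 and 3019.9 and fell by 2.69 ± 0.33. Of the receptors FZD2 rose under all 3 scalings (1.94 ± 0.29) and FZD1 and FZD7 on the deposited scale alone (1.97 and 1.34), while FZD6, LRP5 and LRP6 did not pass. The Wnt target LEF1 had 108 and 95.7 against 101 and 97.9 (0.03) and the inhibitor DKK1 6289 and 7141 against 2056 and 2619 (1.53, adjusted p = 0.0954). Of the Notch genes only NOTCH2 passed (1.33 ± 0.28, 1 of 11 or 9.09%, against 11.7% of all genes). It was lost without M1B26 replicate 2 or MC26 replicate 1.

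Of 11 interleukin-1 family genes 5 receptors rose, while the ligands IL1A and IL18 and the protease CASP1 fell. The receptor subunit IL1RAP did not pass (-0.44, adjusted p = 0.355). IL1R2 had 8935 and 7839 in M1B26 against 78.5 and 148 in MC26, and IL1RL1 1308 and 2407 against 16.5 and 37.5, with 177 and 285 and 209.7 and 387 in MCF10A-CT. The signalling receptor IL1R1 had 1627 and 1553 against 132 and 230.2 (3.18 ± 0.58), and the interleukin-18 receptor IL18R1 (2.09 ± 0.33) and the inhibitory receptor SIGIRR (2.20 ± 0.35) rose too. The ligand IL1A had 638 and 791 against 2723 and 2392 (-1.84 ± 0.39), and IL18 (-1.05 ± 0.24) and CASP1, the protease that matures IL18 and IL1B (-0.64 ± 0.17), fell by less. All 8 calls held under the 3 scalings, though IL1A, IL18 and CASP1 were lost without 1 or more arrays (adjusted p up to 0.0683, 0.109 and 0.162). IL1B, with 1951 and 3386 against 5007 and 2506, overlapped between the lines (-0.46). The chemokine CXCL8 had 7829 and 7385 against 1571 and 1222 (2.46 ± 0.59, adjusted p = 0.0135). It was the only 1 of 8 chemokines to pass (12.5% against 11.7% of all genes) and was lost without any 1 array. Of 16 genes for NF-kB subunits and feedback, TNFAIP6 passed under all 3 scalings (568 and 420.2 against 7.83 and 24.8) and TNIP1 on the deposited scale alone. Together they made 12.5% of that list, near the 11.7% of all genes. SERPINA3, an acute-phase protease inhibitor, had 5027 and 5508 against 97.0 and 317, and the complement genes C1S, C3 and C1R rose by 2.31, 1.62 and 1.55 (C3 and C1R with adjusted p up to 0.125 and 0.143 without 1 array), while MCF10A-CT had 4877 and 3955 for SERPINA3.

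**Figure D4:**
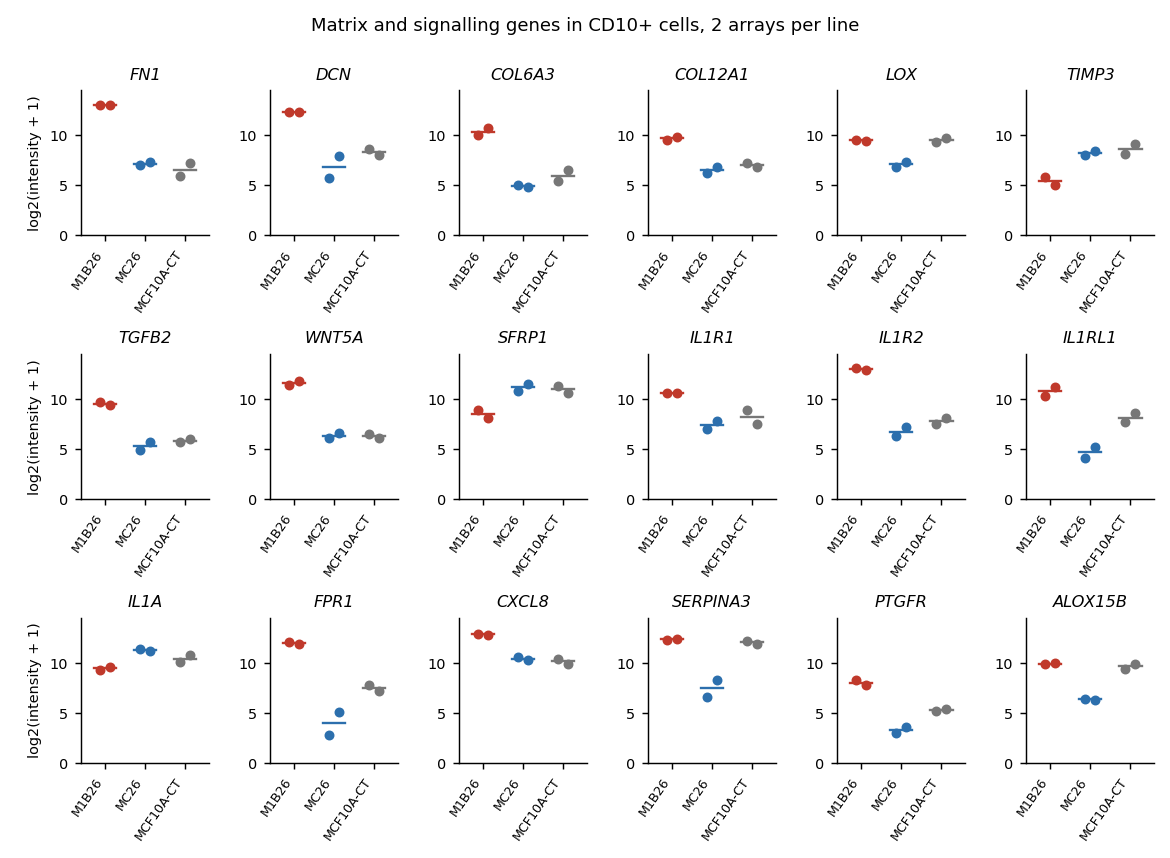
Log2(intensity + 1) of each CD10+ array of M1B26, MC26 and MCF10A-CT on the vertical axis for matrix and signalling genes, with a dash at each group mean. FN1 lies at 8258 and 8402 in M1B26 against 126 and 162 in MC26, and for SERPINA3 the MCF10A-CT points lie far above those of MC26.

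Both lines were exposed to BMP2 and IL6. None of 16 BMP targets and antagonists passed, while 6 of 17 IL6 receptor and STAT3 feedback genes did (35.3% against 11.7% of all genes, 4 higher and 2 lower), the 2 lower ones under all 3 scalings. BMPR1B, the receptor used to sort M1B26 before its transformation, had 127 and 97.9 in M1B26, 150.2 and 162 in MC26 and 213 and 130.2 in MCF10A-CT, and did not pass (-0.48 ± 0.27, adjusted p = 0.273). Another BMPR1B probe set, with 67.7 and 53.9 against 38.6 and 69.0, overlapped between the lines (0.22), and a dim further one differed by -1.23. ID1, a direct BMP target, had 4697 and 5035 against 4777 and 6466, groups that overlapped (-0.19 ± 0.31, adjusted p = 0.767). The other BMP targets included ID2, ID3, SMAD7 and BAMBI (-1.14, -0.65, 0.54 and -0.94), with a median of 0.14 against 0.20 over all genes. BMPR2 and the co-receptor ENG were called on the deposited scale alone (0.92 and 0.86). SOCS3, the feedback inhibitor that STAT3 induces, had 62.5 and 138 against 134 and 131 (-0.51 ± 0.70, adjusted p = 0.713). The IL6 receptor IL6R, with 47.9 and 47.5 against 116 and 118, fell by 1.28 ± 0.35 and SOCS2 by 0.90 ± 0.23 under all 3 scalings, and both were lost without 1 or more arrays (adjusted p up to 0.140 and 0.119). JAK1, IL6ST, OSMR and JAK2 were called higher (0.88, 0.80, 1.00 and 1.57), none of them under all 3 scalings, and the mean of all JAK1 probe sets was -0.09. Interferon-stimulated genes had 1 higher (IFI6, 1.62) and 1 lower (HERC5, -1.11) of 34 (5.88% against 11.7% of all genes). IFI6 lost its call without M1B26 replicate 2 or MC26 replicate 2, and HERC5 without any 1 array. Of 15 genes of MHC class I presentation 6 were higher on the deposited scale and 1, the peptide-loading protein TAPBP (1.08 ± 0.23, adjusted p up to 0.0972 without 1 array), under all 3, and the median was 0.58 on the deposited scale and 0.07 with quantile normalization.

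The EGF receptor family split. ERBB3, which pairs with ERBB2, fell (9.33 and 11 against 39.1 and 40.4, -1.87 ± 0.36, near background in M1B26) and ERBB2 rose (202 and 206 against 99.5 and 100, 1.02 ± 0.21), while EGFR had 834 and 887 against 910.1 and 845 (-0.03). Of the ligands HBEGF had 39.7 and 82.1 against 531 and 416 (-3.02 ± 0.61) and TGFA 292 and 256 against 1149 and 548 (-1.53 ± 0.41). These 4 calls of 11 held under all 3 scalings, but ERBB2, HBEGF and TGFA were not called in every fit (adjusted p up to 0.0541, 0.0736 and 0.297). ERK feedback genes showed 1 lower (DUSP7, -1.02) and 1 higher (DUSP4, 1.42, not under all 3 scalings) of 19, or 10.5% against 11.7% of all genes. Of 15 immediate early genes ATF3 and KLF6 fell (-2.14 and -1.20), 13.3% of that list, with ATF3 near background in M1B26. DUSP7 lost its call without either M1B26 array or MC26 replicate 1, ATF3 without either M1B26 array or MC26 replicate 2, and KLF6 without any 1 array. CD44, a hyaluronan receptor used as a stem cell marker in the breast, rose by 0.96 ± 0.19 with the probe set used, while its other probe sets ran in both directions and the mean of all was -0.14. With ITGA6, MME and ENG it made 3 of 11 stem and progenitor surface genes higher and 1 lower, ENG not under all 3 scalings. The aminopeptidase ANPEP, another membrane peptidase, had 4677 and 5162 against 1700.1 and 1926 (1.44 ± 0.20), though averaged with its dim probe sets it came to -0.20. PAPPA and the receptor IGF2R (1.04 ± 0.22, adjusted p up to 0.0843 without 1 array) were the 2 of 10 genes around the insulin-like growth factors to pass.

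Hypoxia and glycolysis genes leaned to M1B26. Of 32, 12 were higher and none lower on the deposited scale and 6 under all 3 scalings, with a median of 0.58 that was 0.17 after quantile normalization and 0.30 after centring. The mitophagy receptor BNIP3L had 1974 and 1694 in M1B26 against 387 and 299 in MC26 (2.42 ± 0.28, adjusted p = 6.61e-05) and BNIP3 3422 and 2994 against 1224 and 928 (1.59 ± 0.26). The glycolytic genes PFKFB4 and GPI rose by 1.68 ± 0.29 and 1.00 ± 0.18, whereas ALDOA and GAPDH, called on the deposited scale, were lost under the others (0.65 and 0.58). Among NRF2 targets GCLC, which makes glutathione precursors, had 2477 and 2152 against 657 and 949.7 (1.55 ± 0.22) and TXNRD1 rose by 1.33 ± 0.26, while the cystine transporter SLC7A11 had 222 and 236 against 615 and 747 and fell by 1.56 ± 0.33. With SLC7A11, the amino acid transporter genes SLC7A5 and SLC3A2 and ATF3 made 4 of 23 integrated stress response genes lower under all 3 scalings (-0.83 and -1.07 for the transporters), all 4 not called in every fit (adjusted p up to 0.0537, 0.102, 0.0880 and 0.100). Lipid mediator genes moved both ways. The lipoxygenase ALOX15B had 955 and 1012 against 83.2 and 79.6 (3.58 ± 0.44), with 698 and 971 in MCF10A-CT, the prostaglandin receptor PTGFR had 310.1 and 221 against a near-background 6.95 and 10.8 (4.76 ± 0.62), and the receptor PTGER4 fell by 1.94 ± 0.36. Of 41 respiratory chain subunits 5 were higher, a called share of 12.2% that lay near the 11.7% of all genes. Among these only UQCRB held under all 3 scalings, and it lost its call without M1B26 replicate 2 or MC26 replicate 1.

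No gene of the 2 cell cycle phase lists passed on the deposited scale. The count was 0 of 57 for G2-M genes (median 0.01), and 0 of 42 for G1-S genes (median -0.26), while 11.7% of all genes were called. With quantile normalization PTTG1 (-0.55) of the G2-M list and RFC4 (-0.64) of the G1-S list were called lower, RFC4 also with centring. The cyclin-dependent kinase inhibitors CDKN1A (1504 and 1428 against 454 and 484, 1.64 ± 0.45) and CDKN1C (2.17 ± 0.57) were called on the deposited scale but under neither other scaling. Of 20 p53 targets 3 rose and 1 fell under all 3 scalings, among them BAX (1.40 ± 0.32) and TP53INP1 (1.76 ± 0.33), both lost without MC26 replicate 1 (adjusted p = 0.144 and 0.0561). No heat shock gene of 10 passed, and no cholesterol synthesis gene of 17. At HMGCS1, an early enzyme of that pathway, the MC26 arrays, at 281 and 1168, lay on either side of M1B26, at 518 and 386.

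The study's ENI10 signature was chosen on sorted MCF10A-CT arrays, which enter this difference through the shared estimate of the spread and, with the other arrays, through the choice of probe set and the filter on low values. Its cell-division portion had 1 of 50 genes higher (SUSD2, 1.95, not under the other scalings), with a median of -0.04. The rest of the signature had 38 of 103 higher and 2 lower, with a median of 0.57 against 0.20 over all genes, and 30 and 2 under all 3 scalings. Quantile normalization and centring gave medians of 0.29 and 0.28. Apart from IL1RL1, FPR1, IL1R2, SRGN and the matrix genes given above, MLPH, a melanosome transport adaptor (809 and 839.7 against 177 and 212, 2.08 ± 0.22), the sphingolipid receptor S1PR3 (2504 and 2459 against 157 and 141, 4.05 ± 0.51) and the surfactant protein SFTPB (194 and 247 against 31.0 and 42.8, 2.55 ± 0.32) rose. CLIC3, a chloride channel family protein, had 128 and 145 against a near-background 3.33 and 16.2 (3.99 ± 0.91, a size that is uncertain), and it was called in only 1 of the 4 fits with an array left out (adjusted p up to 0.152).

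**Figure D5:**
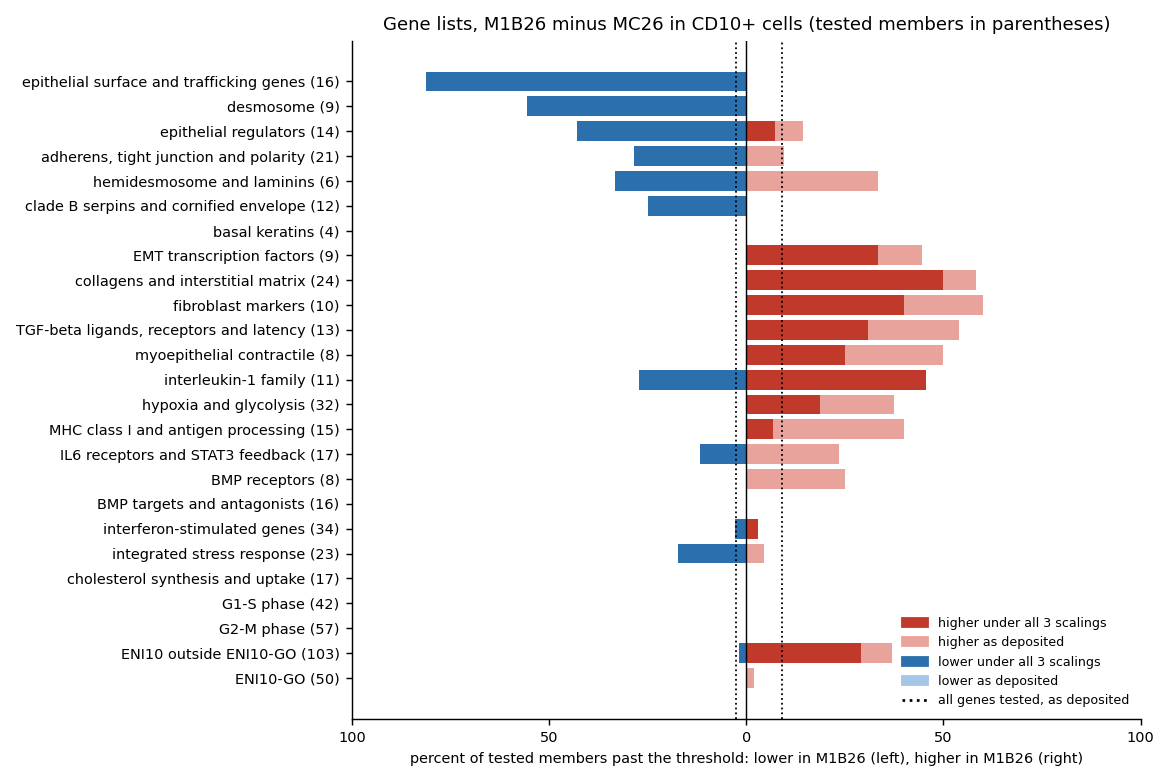
Percent of the tested members of each gene list called higher (right, red) or lower (left, blue) in M1B26 than in MC26 CD10+ cells, with light bars for the deposited scale, dark bars for calls under all 3 scalings, and dotted lines at the shares of all genes tested (9.12% higher, 2.56% lower). Epithelial surface genes (13 lower of 16) and matrix genes (14 higher of 24) lie on opposite sides, and the G2-M list has no call.

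The mean of MCF10A-CT CD10+ cells lay nearer MC26 at 705 of the 1110 higher genes and at 249 of the 311 lower ones, and nearer M1B26 at 405 and 62. These are calls on the deposited scale, and the share over all genes tested was not counted. On that scale the upper quartiles of MCF10A-CT CD10+ arrays (104.56 and 95.09) also lay nearer MC26 (98.89 and 110.48) than M1B26 (120.87 and 123.61). A nearer mean does not make 2 lines alike. FN1, COL6A3, TGFB2, WNT5A, CDH1 and ESRP1 were of the kind at which M1B26 stood apart from both other lines. SERPINA3, S100A4, LOX and ALOX15B were of the other kind, at which MC26 was lower than both, with MCF10A-CT means of 4416, 3546, 748 and 835 against MC26 means of 207, 484, 138 and 81.4 and M1B26 means of 5267, 3926, 724 and 984.

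The same line difference called few genes outside CD10+ cells. In CD10- cells 10 genes passed (0.0822% of those tested, 6 higher and 4 lower, 875 at an unadjusted p under 0.05) and in unsorted cells 12 did (0.0986%, 9 and 3, 552 unadjusted), against 1421 in CD10+ cells (3162 unadjusted). Leaving out an array gave 9 to 21 in CD10- cells, with 21 without M1B26 CD10- replicate 1, and in unsorted cells 4 without either M1B26 array, 46 without MC26 replicate 1 and 19 without MC26 replicate 2. The genes called higher in CD10+ cells had a median difference of 1.18 there, 0.29 in CD10- and 0.21 in unsorted cells. For those called lower the medians were -1.61, -0.13 and -0.13. Both sets were chosen by their CD10+ difference, so part of the contrast between the medians follows from that choice. Over all genes tested, 62.5% lay above 0 in CD10- cells and 47.9% in unsorted cells. The direction was shared at 918 of 1110 and 206 of 311 genes in CD10- cells, and at 877 and 191 in unsorted cells. SRGN differed in all cells, with 6129 and 6302 against 209 and 196 in CD10+ cells (4.93), 4.05 in CD10- cells (adjusted p = 0.00243) and 4.28 in unsorted cells (adjusted p = 0.00180). FN1 differed by 5.85, 3.12 and 3.51 and TIMP3 by -2.83, -2.10 and -1.93, of which only the CD10+ differences passed.

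The difference between the CD10+ and the CD10- line differences was tested directly and passed at 154 genes (1.27%), 80 positive and 74 negative, and positive calls were 51.9% of all on the deposited scale, 42.5% of 179 with quantile normalization and 38.8% of 201 with centring. With line by replicate number as a random block it passed at 282 genes, 161 positive and 121 negative. The count was 84, 83 and 68 without M1B26 CD10+ replicate 1, M1B26 CD10+ replicate 2 and MC26 CD10+ replicate 1, and 73 and 84 without M1B26 CD10- replicate 2 and MC26 CD10- replicate 1. Of the 154, 78 were called higher and 71 lower in CD10+ cells. CDH1 had intensities of 481 and 718 in M1B26 CD10- cells and 1016 and 777 in MC26 CD10- cells, so its line difference was -0.60 there, and the test gave -3.34 (adjusted p = 0.000163). EPCAM lay at 2173 and 2857 in M1B26 CD10- cells and 1872 and 1239 in MC26 CD10- cells (0.71, test -3.65, adjusted p = 0.0101). Both arrays of M1B26 CD10- cells thus held CDH1 and EPCAM far above the M1B26 CD10+ arrays. ZEB1 differed by 0.58 in CD10- cells (test 2.51, adjusted p = 0.0300), COL6A3 by 1.49 (test 3.96), TGFB2 by 0.23 (test 3.96) and WNT5A by 1.45 (test 3.83). For FN1 the test gave 2.73 (adjusted p = 0.339), for DCN 3.13 (adjusted p = 0.216), for CDH2 2.27 (adjusted p = 0.107) and for SRGN 0.88 (adjusted p = 0.785), so these did not pass although each was called in CD10+ cells. Over the 16 epithelial surface genes the median line difference was -0.07 in CD10- cells and 7 passed this test in the lower direction, and over the 24 matrix genes it was 0.52, with 4 passing in the higher direction and 1 in the lower.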

How the data were processed

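Affymetrix HG-U133 Plus 2.0 arrays were hybridised with RNA of 3 lines, each as CD10+, CD10- and unsorted cells (2 arrays in each of 9 groups). Per the labels, probe sets were summarised by the authors using MAS5 in Expression Console (no versions given), while the study's methods name RMA with quantile normalization. The deposited values are linear intensities with the same median (16.65) on every array and upper quartiles that differ, so they were not quantile normalized. Scaled this way, arrays with more bright probe sets carry higher values for most expressed genes. No column was left out.

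Of 54675 probe sets, 41091 had 1 gene, 1801 several and 11721 none in the platform annotation, with symbols updated from the NCBI table of GRCh38.p14. The probe set with the highest mean over 18 arrays stood for each of 19775 genes. Genes with a mean log2(intensity + 1) above 3.94 (intensity 14.3, the median of all probe set means) were tested, 12166 in all. A group mean under that level is called near background.

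Differences were tested with limma 3.58.1 in R 4.3.3 (9 group means, all 18 arrays, 9 residual and 6.28 prior degrees of freedom, eBayes with an intensity trend, two-sided, Benjamini-Hochberg adjusted p under 0.05 over all genes). The test was run on simulated data with known changes first. Named genes were the 15 largest increases and 15 largest decreases past the threshold with arrays apart between the lines and a higher group mean above log2 of 6, up to 4 members of each of 49 gene lists with the smallest p, the 5 largest each way in the test of CD10+ against CD10- differences, and 10 fixed genes. Other list members are named where a list is described. The members and lists were chosen with earlier results of these data known. Alternatives were a pseudocount of 16, other filters, quantile normalization, centring, the mean of all probe sets, fits on fewer arrays, no trend, the methods' t-test, replicate blocks and leaving out each array. The methods' t-test stands here for a Student t-test, unpaired and with equal variances, on the 4 arrays compared. For the MCF10A-derived models the study's methods name the paired form, so this is not the study's own test of these genes.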

Additional observations from a re-analysis of the deposited data

Results flagged for a closer look

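Groups of 2 arrays are too small to test single arrays as outliers, so the results below are those at which the line difference in CD10+ cells differed from that in CD10- cells in a direct test (limma, adjusted p under 0.05 over all genes). That test passed at 154 genes, and the values are the CD10+ difference minus the CD10- difference on the log2 scale.

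Among receptors and signals the values were 6.57 for FPR1, 5.46 for PTGFR, 4.08 for IL1RL1, 3.89 for IL1R2, 2.70 for SIGIRR, 3.63 for S1PR3, 2.86 for ADGRG2, 3.96 for TGFB2 and 3.83 for WNT5A. They were -3.98 for P2RY2 and -3.03 for SFRP1. ADGRG2 and COL8A1 passed this test without being called in CD10+ cells alone.

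Matrix and mesenchymal genes gave 3.96 for COL6A3, 3.63 for COL6A1, 3.12 for COL12A1, 2.10 for LOX, -2.31 for COL8A1, 3.18 for S100A4, 1.20 for TPM2, 2.51 for ZEB1 and 5.73 for ZEB2. The secreted and metabolic genes PAPPA, SERPINA3, SFTPB, ALOX15B, CYP1B1, GALNT15 and GCLC gave 4.59, 3.90, 2.53, 3.51, 3.20, 5.00 and 1.52. CLIC3 stood at 6.20, PRR16 at 4.72, MLPH at 2.17 and S100A3 at 2.32.

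Epithelial adhesion genes gave -3.34 for CDH1, -3.65 for EPCAM, -3.40 for MARVELD3, -1.88 for CRB3, -2.11 for PKP2, -1.92 for DSG3, -1.41 for DSP, -2.08 for ITGA6 and -3.11 for DST. Surface and trafficking genes gave -3.39 for FAM83B, -3.35 for MAL2, -3.35 for ST14, -1.88 for SPINT2, -2.46 for MAP7 and -2.29 for CDS1. Regulators gave -4.09 for MIR205, -2.87 for ESRP1, -2.10 for OVOL2 and -1.17 for TFAP2A. The remaining values were -4.81 for TNNI2, -3.65 for SLC26A6, -3.59 for LINC01503, -2.93 for EYA2, -2.87 for S100A14 and -1.12 for CSTA. Sizes are uncertain where a CD10+ group lay near background, as for ZEB2, PTGFR, CLIC3, PRR16, TNNI2, P2RY2, EYA2 and MARVELD3. The direction of DST depends on the probe set. SLC26A6 had a mean of 4.135 over all arrays, close to the filter. In CD10+ cells it was called (-1.76, adjusted p = 0.0379, limma) but not with quantile normalization (adjusted p = 0.0569).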

How the results depend on the processing

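The 1421 genes called between M1B26 and MC26 CD10+ cells became 935 with the mean of all probe sets of a gene, 2331 with the 4 CD10+ arrays alone and 1 with the methods' t-test after Benjamini-Hochberg adjustment (2386 before it), and ranged from 499 to 1008 with 1 array left out. The other settings gave 1104 to 1561. In CD10- cells the 10 calls became 3 with a mean above log2 of 6, 3 with the mean of all probe sets and 0 with the methods' t-test (767 at an unadjusted p under 0.05), and 9 to 21 with 1 array left out. In unsorted cells the 12 calls became 7 with a mean above log2 of 6, 7 without an intensity trend and 1 with the methods' t-test, and 4 to 46 with 1 array left out. The direct test of CD10+ against CD10- differences, with 154 calls, gave 68 to 166 with 1 array left out and 282 with the random replicate block of line by replicate number.

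Between the lines, deviations of same-numbered arrays correlated at -0.05 in CD10+, 0.02 in CD10- and 0.46 in unsorted cells, and between CD10+ and CD10- arrays of a line at 0.18 in M1B26 and 0.36 in MC26. With 2 arrays a group this does not settle whether numbers pair the samples. With the replicate block as a term 1530 genes were called, and 142 of the 143 named genes kept their side of the threshold.

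With the mean of all probe sets the sign turned for ANPEP (-0.20), JAK1 (-0.088), B2M (-0.10), VIM (-0.25), CALD1 (-0.13) and CD44 (-0.14), none of them past the threshold then. With 1 array left out SOCS3 ranged from -1.071 to 0.058 and ID1 from -0.411 to 0.026, positive without M1B26 replicate 1 and MC26 replicate 2, and neither had passed before. Of the 143 named genes 27 no longer passed with quantile normalization, 29 with centring, 33 of 135 with the mean of all probe sets besides the 6 whose sign turned, 140 with the methods' t-test and 35 to 57 with 1 array left out, where fewer arrays enter the test. The cause of the other changes was not tested. With 2 arrays a group the median SE was 0.30, and differences of that order, or of genes near background in both lines, could not be resolved.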
